A study of Homo sapiens with 4 samples.

Results

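The comparison of FOXF2 siRNA with control siRNA in MCF10A cells covered every gene row of the deposited value table, on 1 array for each siRNA. The table held 37810 gene names, and 11312 of them were above background on both MCF10A arrays and had a measured difference. MCF10A is an immortalized, non-tumorigenic human mammary epithelial line. Its cells received 20 nM of control siRNA or 20 nM of FOXF2 siRNA, and total RNA was taken at 48 h. MDA-MB-231, a line from a metastatic breast cancer, received the same 2 siRNAs at the same dose and time, on 1 array each, and serves here only as background. No other agent or genetic change is named for any group, and the siRNA sequences were not used here. The series asks which genes FOXF2 regulates in normal and in metastatic breast epithelium.

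FOXF2 is a forkhead transcription factor that binds DNA through a winged-helix domain. In the embryo it is known mainly from mesenchyme beneath epithelia, where it acts together with Hedgehog, Wnt and TGF-beta signalling. In breast cancer it has been studied for its effects on epithelial-to-mesenchymal transition and on metastasis.

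Each group was 1 array, so no difference below has a replicate check and no p-value is given. Overlap between groups could not be judged for the same reason. Differences are FOXF2 siRNA minus control siRNA in log2 units, after a background correction of the deposited linear intensities and an offset of 16. For dim genes the correction gives larger differences than the deposited values do, and the offset makes them smaller again in part. A gene was above background where it exceeded the upper 1% of the estimated background, which was an intensity of 121.53 on the control array and 121.7 on the FOXF2 siRNA array. The spread of differences across genes narrowed with intensity. With 1 array per group, that spread mixes real changes with noise and does not measure precision. The robust SD of all differences was 0.432 for the 4426 MCF10A genes of mean intensity below 250, 0.31 for the 1829 genes between 500 and 1000, and 0.217 for the 461 genes of 5000 or more. Genes with a mean deposited intensity of 500 or more are therefore given first, and 4310 genes reached it. Levels are compared only between arrays, never between genes.

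The MCF10A label was checked against marker genes. All 9 markers of basal mammary epithelium were above background on both MCF10A arrays, among them the basal keratins KRT5 (6789.9 after control siRNA and 7202 after FOXF2 siRNA) and KRT17 (8218 and 9409). Their intensities summed to 45143 on the control array and to 47945 on the FOXF2 siRNA array. In MDA-MB-231, 3 of the 9 were above background on both arrays, and KRT5, KRT14, KRT17 and KRT6A were on neither. Of 16 fibroblast, endothelial and blood markers, 4 were above background on both MCF10A arrays, namely DCN, PDGFRA, PECAM1 and CD14, and 10 were on neither, including COL1A2, COL3A1, LUM, VWF and PTPRC. The 7 fibroblast markers summed to 1006 with control siRNA and to 1540 with FOXF2 siRNA, and DCN alone went from 333 to 853 between these arrays. In bulk RNA such as this, fewer cells of a kind and less RNA per cell cannot be told apart.

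The target was lower on the array labelled FOXF2 siRNA. FOXF2 had a deposited intensity of 241 after control siRNA and 143 after FOXF2 siRNA, a log2 difference of -1.45, and the ratio of the deposited values was 0.59. That difference was 3.0 robust SDs below 0 among the 401 genes of most similar mean level. FOXF2 was a dim gene in MCF10A, with both values closer to the background than to the intensity of 500 used for bright genes. In MDA-MB-231 FOXF2 was 259 after control siRNA and 123 after FOXF2 siRNA, a log2 difference of -2.25.

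More genes were higher than lower with FOXF2 siRNA at a fixed fold, and the excess was in bright genes as well. Of the 11312 genes, 172 (1.52%) were higher after FOXF2 siRNA by 2-fold or more and 91 (0.804%) were lower by 2-fold or more. At 1.5-fold, 827 (7.31%) were higher and 646 (5.71%) lower. Among the 4310 genes of mean intensity 500 or more, 29 (0.673%) passed 2-fold upward and 7 (0.162%) downward, and at 1.5-fold 170 (3.94%) were higher and 97 (2.25%) lower. In MDA-MB-231, 11 of 4322 genes of that intensity (0.255%) passed 2-fold upward and 12 (0.278%) downward. The median over all MCF10A genes was -0.005, with 5578 genes above 0 and 5734 below. At 1.5-fold the deposited intensities, with no correction, gave 257 higher and 133 lower of the 11312. List counts on the deposited scale below stand against these 2 numbers. The shares of 7.31% and 5.71% hold for the corrected differences only. Without the background correction, 19 bright genes passed 2-fold upward and 3 downward.

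**Figure D1:**
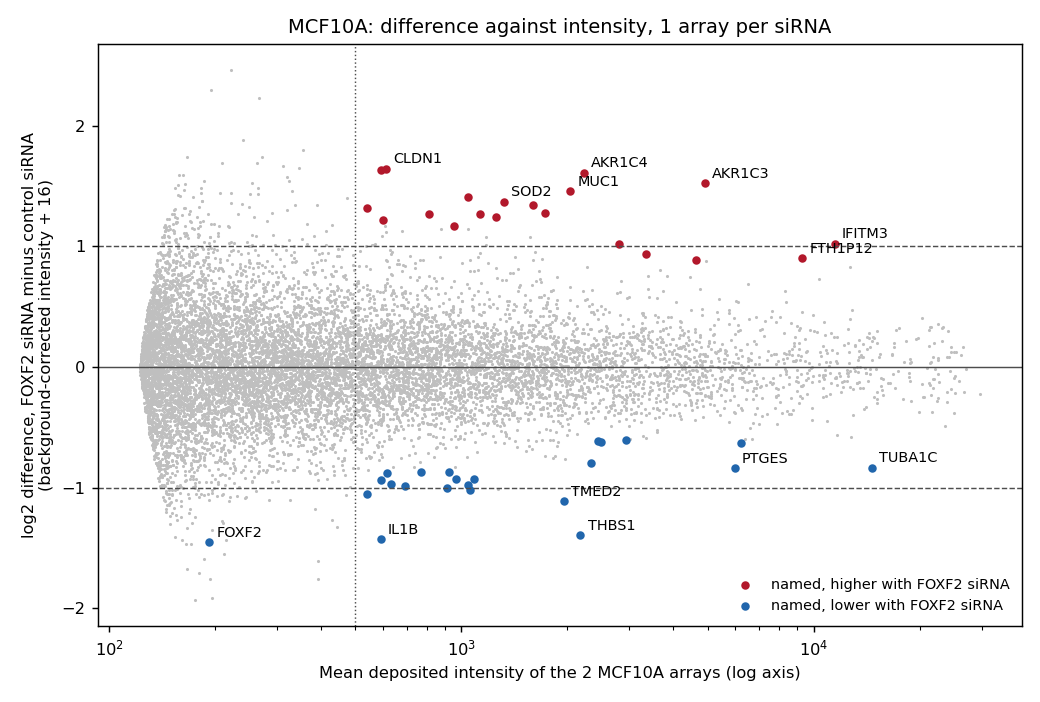
Log2 difference in MCF10A (FOXF2 siRNA minus control siRNA) against the mean deposited intensity of both arrays, on a log axis, for the 11312 genes above background on both. Red and blue points are named genes, dashed lines mark 2-fold, the dotted line marks an intensity of 500, and the cloud narrows from a robust SD of 0.432 below 250 to 0.217 at 5000 or more.

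Among the genes of mean intensity 500 or more, those with the highest differences included aldo-keto reductases, surface and secreted epithelial proteins, and matrix proteins. Aldo-keto reductases of the 1C subfamily reduce steroids, prostaglandins and carbonyl compounds. AKR1C3 was 2577 after control siRNA and 7247 after FOXF2 siRNA, a difference of 1.52. AKR1C4 was 1144 and 3314, a difference of 1.61, and AKR1C2 was 941 and 2250.2, a difference of 1.34. These genes are close in sequence, and how far their probes share signal was not tested. CLDN1, a claudin of epithelial tight junctions, was 342 after control siRNA and 883 after FOXF2 siRNA, a difference of 1.64. MUC1, a transmembrane mucin of the apical surface of glandular epithelium, was 1129.9 and 2952, a difference of 1.46. MSLN, the cell surface glycoprotein mesothelin, was 1048 and 2409, a difference of 1.27. The secreted and matrix proteins in this group have distinct roles. DCN encodes decorin, a small proteoglycan that binds collagen, and was 333 after control siRNA and 853 after FOXF2 siRNA, a difference of 1.63. COL8A1, a chain of short-chain collagen VIII, was 782 and 1729.9, a difference of 1.24. SERPINA3, the acute-phase protease inhibitor alpha-1-antichymotrypsin, was 611 and 1479.6, a difference of 1.41.

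The remaining 6 of the 15 highest were enzymes, regulators and a lipid carrier. SOD2, the mitochondrial manganese superoxide dismutase, was 777 after control siRNA and 1869 after FOXF2 siRNA, a difference of 1.37. TXNIP, which binds and inhibits thioredoxin and limits glucose uptake, was 698 and 1561, a difference of 1.27. MAOA, the mitochondrial enzyme that oxidises monoamines, was 618 and 1284, a difference of 1.17. The last 3 were OSBPL5, an oxysterol-binding protein relative that moves lipids between membranes (difference 1.27), SIPA1L2, a relative of a Rap GTPase-activating protein (1.32), and FAM234A, listed in the table as ITFG3 (1.22). All 15 had an intensity above 700 with FOXF2 siRNA. Among genes of mean intensity 2000 or more, the highest differences beyond the aldo-keto reductases and MUC1 included an interferon-induced membrane protein and ferritin heavy chain pseudogenes. IFITM3, which blocks the entry of enveloped viruses into cells, was 7604 after control siRNA and 15350.3 after FOXF2 siRNA, a difference of 1.02. The ferritin rows FTHL3P, FTHL12 and FTHL11 had differences of 1.02, 0.90 and 0.89. Shared signal between these rows and with the parent ferritin gene was not tested.

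The bright genes with the lowest differences were led by a cytokine, a matricellular protein and a protein of the secretory pathway. IL1B encodes the inflammatory cytokine interleukin-1 beta and was 821 after control siRNA and 359.5 after FOXF2 siRNA, a difference of -1.43. THBS1, the matricellular protein thrombospondin-1, which activates latent TGF-beta, was 3117 and 1238, a difference of -1.40. TMED2, a cargo receptor of vesicles that run between endoplasmic reticulum and Golgi, was 2647 and 1272, a difference of -1.11. MCL1 holds off apoptosis as a member of the BCL2 family. It was 1353 after control siRNA and 729.7 after FOXF2 siRNA, a difference of -0.98. HJURP, the chaperone that loads the centromeric histone CENPA, was 889.7 and 492, a difference of -0.99. HMGA1, an architectural chromatin protein, was 771 and 459, a difference of -0.88. NT5E is CD73, the surface enzyme that makes adenosine from AMP, and PPIC is the prolyl isomerase cyclophilin C. NT5E was 1398 after control siRNA and 774 after FOXF2 siRNA, a difference of -0.93. PPIC was 1391 and 731, a difference of -1.02. Of the 15 lowest, 3 act in RNA or transcript processing, namely the cleavage stimulation factor subunit CSTF2 (-0.97), the RNA exosome subunit EXOSC1 (-0.93) and the spliceosome-associated protein CTNNBL1 (-0.87). The others were TM7SF3 (-1.05), IFRD2 (from 1183 to 634), the actin-regulating kinase C substrate MARCKSL1 (-0.94) and TUBB7P, a tubulin pseudogene listed as TUBB4Q (-0.88).

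**Figure D2:**
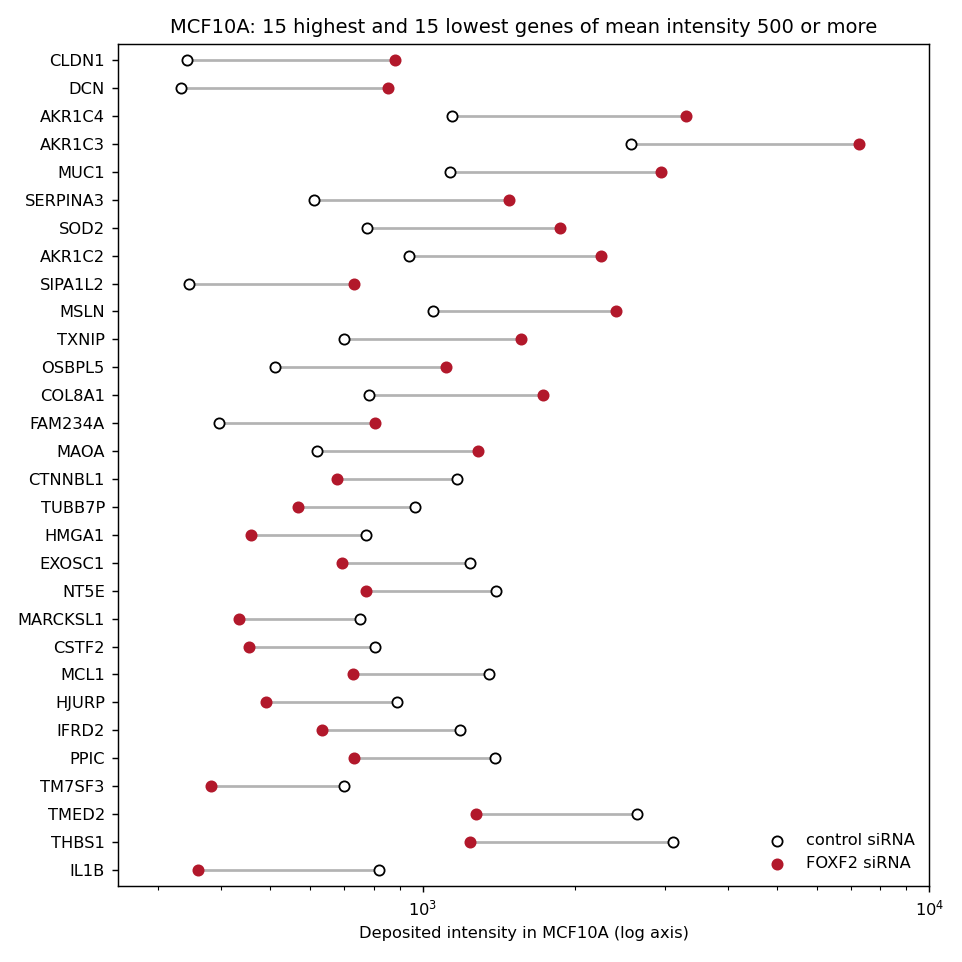
Deposited intensity in MCF10A, on a log axis, of the 15 genes with the highest and the 15 with the lowest log2 difference among genes of mean intensity 500 or more, ordered by difference. Open circles are the control siRNA array and red circles the FOXF2 siRNA array, and the pairs run from CLDN1 (342 and 883) at the top to IL1B (821 and 359.5) at the bottom.

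In the brightest range, genes of 2000 or more, the lowest differences after THBS1 included a lipid mediator enzyme and cytoskeletal genes. PTGES, the synthase of prostaglandin E2, was 7631 after control siRNA and 4302 after FOXF2 siRNA, a difference of -0.84. TUBA1C, an alpha-tubulin, was 18711 and 10518, a difference of -0.84. The calcium-binding protein S100A2 (-0.63), the ATF4-induced pseudokinase TRIB3 (-0.63), the Arp2/3 complex subunit ARPC1A (-0.61) and the mitochondrial lipid transfer protein PRELID1 (-0.60) were also among the 8 lowest.

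Genes induced by interferon were mostly higher with FOXF2 siRNA. Of 50 listed interferon-stimulated genes, 36 were above background on both MCF10A arrays, 29 of them higher and 7 lower, and the median was 0.33 against -0.005 for all genes. Of these, 11 were at least 1.5-fold higher, among all genes 7.31%, and 0 at least 1.5-fold lower, among all genes 5.71%. On the deposited scale 5 were at least 1.5-fold higher, where 257 of all 11312 genes were. Without background correction the median was 0.20. Over the 31 members above background in both lines it was 0.36 in MCF10A cells and 0.01 in MDA-MB-231. GBP2, an interferon-induced GTPase, was 149.8 after control siRNA and 382 after FOXF2 siRNA, a difference of 2.23. IFI44 was 128 and 199.7, a difference of 1.46, and IFI44L was 138 and 226, a difference of 1.44. Both are dim, with control values just above the background limit. Of the list, 5 genes had a mean intensity of 500 or more, 4 of them higher and 1 lower, with a median of 0.64. IFITM3 is given above, and IFITM2, a close relative whose probe may share signal with it (not tested), was 9182 after control siRNA and 16210.4 after FOXF2 siRNA, a difference of 0.83. STAT2, which carries type I interferon signals to the nucleus, was 451 and 653, a difference of 0.64. IRF7, PARP14, PLSCR1, PARP9 and MX1 made up the rest of the 11, with differences between 0.61 and 0.79.

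Most measured genes of antigen presentation and of complement were higher too. Of 20 genes of MHC class I and antigen processing, 17 were above background on both arrays, 14 higher and 3 lower, with a median of 0.18. Over the 15 above background in both lines it was 0.12 in MCF10A cells and 0.23 in MDA-MB-231. The 3 that were at least 1.5-fold higher were HLA-F (1.03), HLA-B (0.83) and TAPBP (0.63), the tapasin that loads peptide onto class I molecules, and 0 were at least 1.5-fold lower, against 7.31% and 5.71% of all genes. On the deposited scale 1 was at least 1.5-fold higher, where 257 of all 11312 genes were. HLA genes are similar in sequence, and shared signal between their probes was not tested. Of 25 complement and acute phase genes, 10 were above background on both arrays, 4 at least 1.5-fold higher and 0 lower by as much, against 7.31% and 5.71% of all genes. On the deposited scale 3 were higher by as much, where 257 of all 11312 genes were. The median was 0.29, 0.15 without background correction and 0.02 over the 3 members of mean intensity 500 or more. CFB, factor B of the alternative complement pathway, was 152 after control siRNA and 327 after FOXF2 siRNA, a difference of 1.88. SAA1, the acute-phase protein serum amyloid A, was 685 and 1405, a difference of 1.14. C3, the central complement component, was 212 and 315, a difference of 0.86, and the protease relative C1RL had a difference of 1.54. A further 5 of the 25 were above background only with FOXF2 siRNA and 1 only with control siRNA. Of all 37810 names, 2590 and 2634 were.

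Promoters of 3 interferon-stimulated genes with higher values are shown because 29 of the 36 measured members of that list were higher. In RefSeq promoter windows of GRCh38.p14, from 250 bases before to 50 after each gene's start, the interferon element, GAAA and again GAAA after any 2 bases, was searched on both strands. It was present in 24 of 40 interferon-stimulated genes with a window (60.0%), in 9 of 16 genes of MHC class I and antigen processing (56.2%), and in 996 of 27305 promoters in all (3.65%). Of the genes above background on both MCF10A arrays, 2.69% of those with a window held it. A match describes the letters only. Capitals mark the matches, and sequences run 5′ to 3′ on the gene's strand. The IFI44 window (chr1:78649539-78649838, plus strand) has its match 18 bases before the start, the first of 2 matches for IFI44L (chr1:78620198-78620497, plus strand) lies 164 bases before it, and the first of 2 for IFITM3 (chr11:320811-321110, minus strand) lies 52 bases before it.
IFI44: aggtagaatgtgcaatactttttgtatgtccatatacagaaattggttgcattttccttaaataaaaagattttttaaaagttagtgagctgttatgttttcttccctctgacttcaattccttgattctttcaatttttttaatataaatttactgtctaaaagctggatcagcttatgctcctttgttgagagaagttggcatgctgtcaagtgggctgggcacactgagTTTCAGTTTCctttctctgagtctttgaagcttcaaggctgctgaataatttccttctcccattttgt
IFI44L: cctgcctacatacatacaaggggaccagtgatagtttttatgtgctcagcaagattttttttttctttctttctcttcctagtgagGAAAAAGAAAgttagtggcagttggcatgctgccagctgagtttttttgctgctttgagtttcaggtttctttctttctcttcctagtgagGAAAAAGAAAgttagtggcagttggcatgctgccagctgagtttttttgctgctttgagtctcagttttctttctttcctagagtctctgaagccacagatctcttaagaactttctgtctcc
IFITM3: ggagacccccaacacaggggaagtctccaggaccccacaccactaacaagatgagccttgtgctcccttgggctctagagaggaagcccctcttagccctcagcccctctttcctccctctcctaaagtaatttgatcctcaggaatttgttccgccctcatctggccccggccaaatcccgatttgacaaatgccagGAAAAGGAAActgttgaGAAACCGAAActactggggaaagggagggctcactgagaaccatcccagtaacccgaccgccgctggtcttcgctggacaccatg

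Genes of cell division were mostly lower with FOXF2 siRNA, by small amounts. Of 35 mitotic genes, 34 were above background on both MCF10A arrays, 30 of them lower and 4 higher, with a median of -0.32 in MCF10A cells and -0.18 in MDA-MB-231. Over all genes 50.7% were lower. At 1.5-fold, 3 mitotic genes were lower, among all genes 5.71%, and 0 higher, and on the deposited scale 0 reached 1.5-fold in either direction. They were MKI67, which encodes the proliferation antigen Ki-67 (from 222 with control siRNA to 162 with FOXF2 siRNA, -0.85), the separase ESPL1 (-0.61) and the centrosomal kinase AURKA (-0.59). KIF2C, a kinesin that depolymerises microtubules at kinetochores, was 1351 and 944, a difference of -0.56. BUB3, a spindle checkpoint protein, was 2093 and 1484, a difference of -0.52. Of the 24 mitotic genes with a mean intensity of 500 or more, 22 were lower, with a median of -0.35. The kinetochore gene NUF2 ran the other way, with a difference of 0.35.

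DNA replication genes followed in the same direction. Of 54 listed, 49 were above background on both MCF10A arrays, 40 lower and 9 higher, and the median was -0.23 in MCF10A cells and -0.02 in MDA-MB-231. Another 4 of the 53 with a row were above background only with control siRNA and 0 only with FOXF2 siRNA. Of all 37810 names, 2634 and 2590 were. At 1.5-fold 3 were lower, a share close to the 5.71% of all genes, and on the deposited scale 0 were. The 3 were GINS4 (236 and 161 on the control and FOXF2 siRNA arrays), a subunit of the replicative helicase, the DNA polymerase delta subunit POLD3 (-0.63), and RRM2, the ribonucleotide reductase subunit that limits the supply of deoxynucleotides. RRM2 was 869.9 after control siRNA and 584 after FOXF2 siRNA, a difference of -0.66. MCM3, a subunit of the ring that unwinds DNA at the fork, was 4223 and 2958, a difference of -0.53, and MCM4 was 1676 and 1194, a difference of -0.52. POLD1, the catalytic subunit of polymerase delta, was higher (0.46), as was the thymidylate synthase TYMS (0.17). Regulators of the G1/S step had no common direction, with 8 of 20 higher, 12 lower and a median of -0.07. Among them E2F5 (-0.73) and RB1 (-0.66) were at least 1.5-fold lower and RBL1, an RB1 relative, at least 1.5-fold higher (0.65), where all genes gave 5.71% and 7.31%, and on the deposited scale 0 reached 1.5-fold.

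Replication genes are classical targets of E2F factors, so 2 of their promoters are shown. The E2F element, spelled TTTGGCGC, TTTCCCGC, TTTGCCGC or TTTCGCGC and searched on both strands, was in 20 of 46 replication promoters (43.5%), in 1 of 28 mitotic promoters (3.57%) and in 908 of all 27305 (3.33%). Some spellings can overlap on opposite strands. Of the genes above background, 5.58% of those with a window held it. The first of 2 matches in the MCM3 window (chr6:52284693-52284992, minus strand) lies 174 bases before the start. The match in the window of GINS2, which encodes another subunit of the GINS helicase complex (2911 after control siRNA and 2192 after FOXF2 siRNA, -0.42), lies 31 bases before it (chr16:85688905-85689204, minus strand).
MCM3: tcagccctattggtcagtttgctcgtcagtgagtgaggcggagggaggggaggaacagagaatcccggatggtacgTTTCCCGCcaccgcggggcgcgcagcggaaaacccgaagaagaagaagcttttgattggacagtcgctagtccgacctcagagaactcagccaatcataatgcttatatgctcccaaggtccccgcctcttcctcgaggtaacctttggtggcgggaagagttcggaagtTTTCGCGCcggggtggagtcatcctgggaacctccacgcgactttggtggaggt
GINS2: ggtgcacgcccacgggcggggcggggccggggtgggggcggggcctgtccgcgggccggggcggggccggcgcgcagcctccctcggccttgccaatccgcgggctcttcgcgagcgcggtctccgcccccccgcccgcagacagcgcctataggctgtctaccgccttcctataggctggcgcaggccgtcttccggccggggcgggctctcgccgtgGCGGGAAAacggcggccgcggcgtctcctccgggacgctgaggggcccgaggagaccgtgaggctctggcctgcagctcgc

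Oxidative defence, which includes the aldo-keto reductases and ferritins, held the most bright genes past 1.5-fold of the lists described. Of 34 genes 29 were above background on both MCF10A arrays, 20 higher and 9 lower, with 10 at least 1.5-fold higher, among all genes 7.31%, and 1 at least 1.5-fold lower, among all genes 5.71%. On the deposited scale 8 reached 1.5-fold higher and 0 lower, where 257 and 133 of all 11312 genes did. The median was 0.14, and 8 of the 25 members of mean intensity 500 or more were at least 1.5-fold higher, against 3.94% of all genes of that intensity. GPX4, which removes lipid peroxides from membranes, was 3509 after control siRNA and 6358 after FOXF2 siRNA, a difference of 0.87 against -0.01 in MDA-MB-231. FTH1 and FTL, the heavy and light chains of the iron store ferritin, were also higher. FTH1 was 2549 and 4228, a difference of 0.75, and FTL was 7834 and 12896, a difference of 0.73. The transferrin receptor TFRC, which brings iron into the cell and was listed as a housekeeping gene, was 4999 and 7995, a difference of 0.69. AKR1B10, another aldo-keto reductase, had a difference of 0.95. HMOX1, the haem oxygenase that answers oxidative stress, was 124 after control siRNA and 162 after FOXF2 siRNA in MCF10A, a difference of 1.02, and had a difference of 2.62 in MDA-MB-231. The 1 gene at least 1.5-fold lower was GSR, the glutathione reductase (-0.60).

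Aldehyde dehydrogenases and retinoid genes split in both directions. Of 34 genes 21 were above background on both arrays, 5 higher and 4 lower by 1.5-fold or more, against 7.31% and 5.71% of all genes. On the deposited scale 2 were higher and 3 lower by as much, where 257 and 133 of all 11312 genes were. ALDH1A3, which makes retinoic acid, was 545 after control siRNA and 237 after FOXF2 siRNA, a difference of -1.61. CRABP2, which carries retinoic acid to its nuclear receptor, was 211 and 139, a difference of -1.24. DHRS3, which reduces retinal to retinol and is itself induced by retinoic acid, was 517 and 313, a difference of -0.93. The fourth was ALDH5A1, the mitochondrial succinic semialdehyde dehydrogenase (-1.23). On the other side, ALDH3A1, which clears aldehydes from lipid peroxidation, was 629 and 1108, a difference of 0.91. ALDH3B1 was higher by 1.44, ALDH4A1 by 0.70 and ALDH6A1 by 0.67. ALDH1A2, which like ALDH1A3 makes retinoic acid, was also higher (0.59).

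Targets of NF-kappaB and cytokine genes were mixed as well. Of 36 genes 19 were above background on both MCF10A arrays, 3 higher and 4 lower by 1.5-fold or more, against 7.31% and 5.71% of all genes. On the deposited scale 2 were higher and 4 lower by as much, where 257 and 133 of all 11312 genes were. The median was 0.08. All 4 of the lower ones encode secreted cytokines or chemokines. IL1B is given above. CCL20, which attracts CCR6-bearing lymphocytes and dendritic cells, was 572 after control siRNA and 288 after FOXF2 siRNA, a difference of -1.27. CSF3, the granulocyte colony-stimulating factor, was 498 and 268, a difference of -1.18. IL1A, interleukin-1 alpha, was 1748 and 1135, a difference of -0.66. The 3 higher ones were SOD2, the cytokine IL32 (1.24) and the neutrophil chemokine CXCL1, which was 581 and 844, a difference of 0.62.

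Matrix genes had large values in both directions, with more of them higher. Of 49 collagens, proteoglycans and matricellular genes, 26 were above background on both MCF10A arrays, 7 higher and 2 lower by 1.5-fold or more, against 7.31% and 5.71% of all genes. On the deposited scale 4 were higher and 2 lower by as much, where 257 and 133 of all 11312 genes were. The median was 0.17, and over the 17 above background in both lines it was 0.12 in MCF10A cells and 0.21 in MDA-MB-231. Besides DCN and COL8A1, the higher ones were thrombospondin-3 (THBS3, 1.41), the collagen VI chain COL6A1 (1.04), the microfibril protein MFAP5 (0.82), fibulin-1 (FBLN1, 665 after control siRNA and 1034 after FOXF2 siRNA, 0.71) and biglycan (BGN, 0.69). The lower ones were THBS1 and TINAGL1, a secreted matricellular protein that was 227 and 123, a difference of -1.93. DCN also stands in the fibroblast marker list, and the part of other cells in these values was not tested. The collagen genes of that marker list were at background or next to it, with COL1A1 at 114 and 122 and COL3A1 at 103 and 86.1.

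Proteases that remodel matrix, and the receptors that bind it, had members in both directions. The medians were 0.08 for the proteases and inhibitors and 0.10 for the integrins. Of 37 matrix proteases and inhibitors, 23 were above background on both arrays, 2 at least 1.5-fold higher (SERPINA3 and the lysosomal protease CTSD, 1389.5 after control siRNA and 2052 after FOXF2 siRNA, 0.59) and 3 at least 1.5-fold lower, against 7.31% and 5.71% of all genes, and 1 and 2 on the deposited scale. The lower ones included the gelatinase MMP9 (211 and 132, -1.47) and the membrane-bound collagenase MMP14 (158 and 130.4, -0.70). Of 20 integrin subunits 11 were measured on both arrays, 6 higher and 5 lower. ITGA2, the alpha chain of a collagen receptor, was 606 after control siRNA and 336 after FOXF2 siRNA, a difference of -1.06, and -1.46 in MDA-MB-231. It was the 1 subunit at least 1.5-fold lower, and ITGB2 (0.79), ITGA10 (0.74) and ITGB4 (0.60) were at least 1.5-fold higher, where all genes gave 5.71% and 7.31%. On the deposited scale 1 subunit was lower and 0 higher. A laminin-332 chain and a chain of its receptor differed in opposite directions. LAMA3, the alpha chain of that laminin, was 1128 and 786, a difference of -0.58. ITGB4, the receptor's beta chain in hemidesmosomes, was 557 and 801. Over the 22 basal keratin, hemidesmosome and laminin-332 genes, all above background, the median was -0.07, with 2 higher and 1 lower by 1.5-fold or more, against 7.31% and 5.71% of all genes, and 0 and 1 on the deposited scale. TP63, the transcription factor of basal epithelium listed as TP73L, was 504 and 369, a difference of -0.57, and the stress keratin KRT16 had a difference of 0.61.

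Epithelial differentiation was followed with 4 lists. Of 58 cornified envelope and squamous differentiation genes, 23 were above background on both MCF10A arrays, 4 higher and 2 lower by 1.5-fold or more, against 7.31% and 5.71% of all genes, and 1 and 0 on the deposited scale. The median was 0.21, 0.12 without background correction and -0.11 over the 5 members of mean intensity 500 or more. Periplakin (PPL), which ties keratin to the cornified envelope, was 172 after control siRNA and 372 after FOXF2 siRNA, a difference of 1.74. The keratinocyte peptide KRTDAP (1.15), the envelope precursor SPRR1A (0.82) and the protease inhibitor SERPINB3 (0.81) were also higher, while the related precursor SPRR3 (-0.76) and the epithelial transcription factor EHF (-0.64) were lower. Of 38 junction and polarity genes, 24 were measured on both arrays and 3 were at least 1.5-fold higher, among all genes 7.31%, and 2 on the deposited scale. These were CLDN1, the polarity protein CRB3 (0.86) and the desmosomal cadherin DSG3, which was 648 and 1022, a difference of 0.74. PKP2, a desmosomal plakophilin, was the 1 that was at least 1.5-fold lower (359 and 245, -0.78), among all genes 5.71%, and 0 were on the deposited scale. Of 17 luminal markers, 8 were above background on both arrays, 6 higher and 2 lower, with a median of 0.40, which was 0.17 without background correction, 0.26 with an offset of 50 and 0.79 over the 3 members of mean intensity 500 or more. MUC1 and CD24, a mucin-like surface protein (1235 and 2077, 0.79), were the 2 at least 1.5-fold higher, among all genes 7.31%, on the deposited scale as well. The luminal keratins KRT8 (334 and 417) and KRT18 (205 and 172) differed in opposite directions, and ESR1 and KRT19 were at background on both arrays. Of 28 mesenchymal and EMT genes, 16 were measured on both arrays, 5 higher and 11 lower, with a median of -0.09. Over all genes 50.7% were lower. SNAI2, which represses E-cadherin and marks basal and mammary stem cells, was 947 and 584, a difference of -0.79. The Wnt ligand WNT5A was also lower (-0.63), but dim, at 147 and 126 where the limit on the FOXF2 siRNA array was 121.7. Its ratio of deposited values was 0.85. The calcium-binding protein S100A4 was 1148 and 1787, a difference of 0.68. The mesenchymal filament VIM was 7981 and 7247, and ZEB1 and ZEB2 were at background on both arrays.

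**Figure D3:**
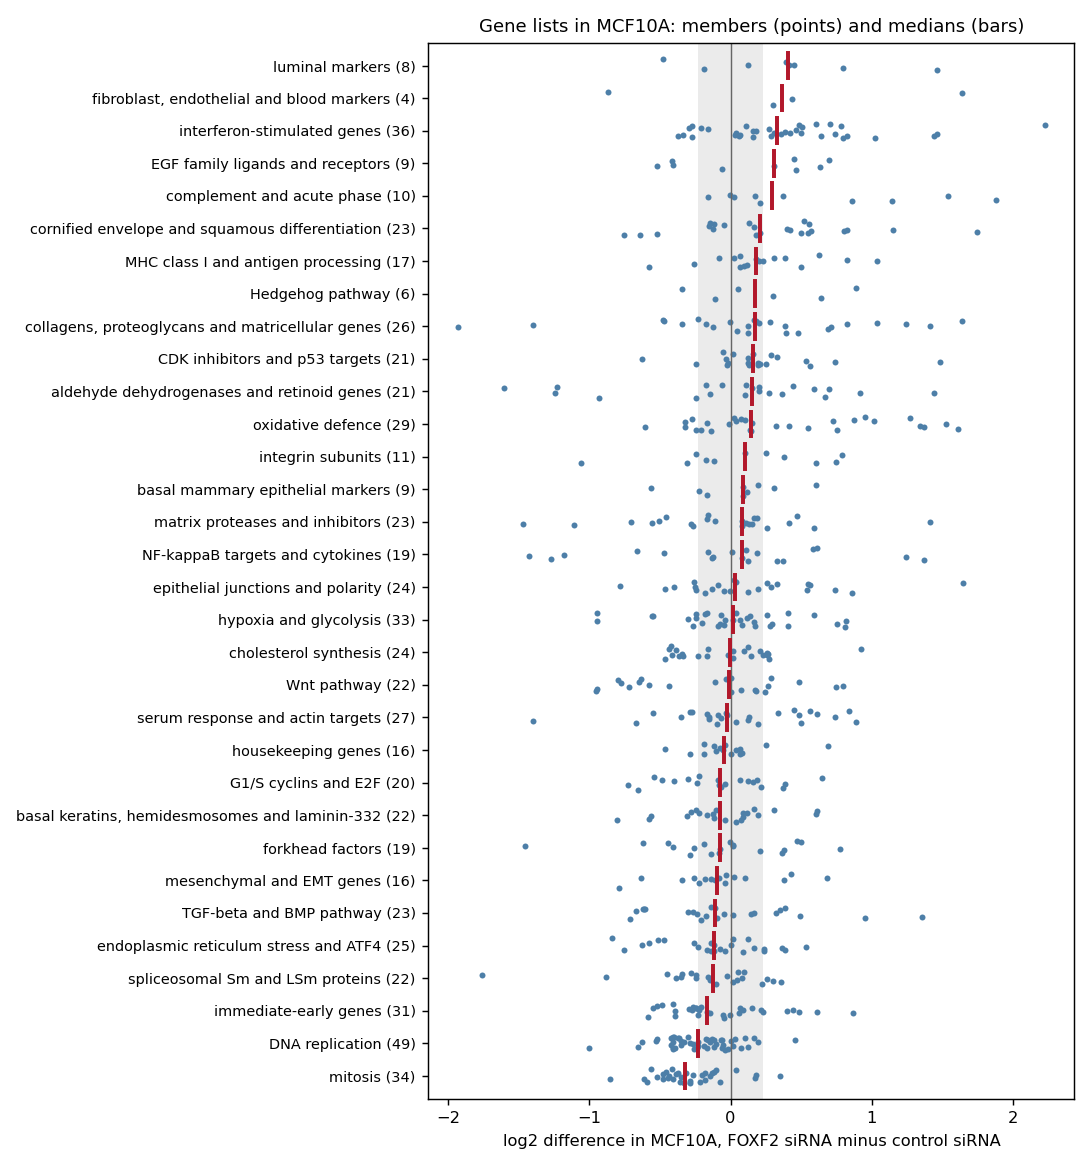
Log2 difference in MCF10A (FOXF2 siRNA minus control siRNA) of every list member above background on both arrays (points, number in brackets), with the list median as a red bar and the middle 50% of all 11312 genes as a grey band. The lists are ordered by median, from mitosis at -0.32 to luminal markers at 0.40, which rests on 8 genes.

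The signalling pathways through which FOXF2 is known to act in mesenchyme showed no common direction. Of 42 TGF-beta and BMP genes, 23 were above background on both arrays, 2 higher and 5 lower by 1.5-fold or more, against 7.31% and 5.71% of all genes, with a median of -0.11. On the deposited scale 2 were higher and 0 lower, and the median without correction was -0.06. The procollagen protease BMP1 (1.36) and the co-receptor TGFBR3 (460.2 after control siRNA and 810.2 after FOXF2 siRNA, 0.95) were higher. Among the lower ones were the ligand BMP2 (-0.67), the inhibitory SMAD6 (-0.71) and the BMP target ID1, which was 1487 and 998, a difference of -0.62. Of 46 Wnt genes 22 were measured on both arrays, 11 higher and 11 lower. At 1.5-fold 2 were higher and 7 lower, against 7.31% and 5.71% of all genes, but 1 and 0 on the deposited scale. The lower ones at 1.5-fold included the receptor FZD8 (-0.95), the ligand WNT7A (-0.95) and RNF43, which removes Frizzled receptors from the surface (-0.80), while the receptor FZD1 was higher (0.80). These Wnt members were dim, with intensities on both arrays of 173 and 131 for FZD8 and 188 and 139 for WNT7A. Of 17 Hedgehog genes 6 were above background on both arrays, and the co-receptor GAS1 (0.88) and the effector GLI3 (0.64) were at least 1.5-fold higher, among all genes 7.31%, and 1 was on the deposited scale. Among 9 measured EGF family genes the receptor ERBB2 (0.70) and ERRFI1, a feedback inhibitor of the receptors (892 and 1335, 0.63) were at least 1.5-fold higher, among all genes 7.31%, and 0 were on the deposited scale. The median was 0.30 and 0.17 without correction, and over the 8 genes above background in both lines it was 0.12 in MCF10A cells and -0.18 in MDA-MB-231.

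Stress and growth lists had small medians. Their counts past 1.5-fold stand against 7.31% of all genes higher and 5.71% lower. Of 21 measured CDK inhibitors and p53 targets, 15 were higher and 6 lower, with a median of 0.16. GADD45B, a stress sensor (1.48), and the p53 target TP53I3 (682 after control siRNA and 1081 after FOXF2 siRNA, 0.74) were at least 1.5-fold higher, and the DNA damage sensor DDB2 was lower (-0.63). On the deposited scale 2 genes of this list were at least 1.5-fold higher and 0 lower. Of 31 measured immediate-early genes 11 were higher and 20 lower, with a median of -0.17, which was 0.07 over the 13 of mean intensity 500 or more. IER2 (0.87) and the matricellular protein CCN2, listed as CTGF (0.61), were at least 1.5-fold higher. On the deposited scale 0 immediate-early genes reached 1.5-fold in either direction. Of 27 measured serum response and actin genes, 4 were at least 1.5-fold higher, namely the actin cross-linker FLNA (0.88), the smooth muscle actin ACTA2 (522 and 863, 0.84), AMOTL2 (0.74) and CCN2, and 2 were lower, THBS1 and the actin-binding calponin CNN3 (-0.67), while on the deposited scale 1 was higher and 2 lower. Endoplasmic reticulum stress and ATF4 genes had 15 of 25 lower, a median of -0.12 in MCF10A cells and -0.29 in MDA-MB-231. The lower ones at 1.5-fold were the disulphide isomerase PDIA4 (-0.84), EDEM1, which directs misfolded glycoproteins to degradation (669 and 433, -0.75), and TRIB3. HSPA5, the main chaperone of that compartment, was 1048 and 729, a difference of -0.58. Of 33 measured hypoxia and glycolysis genes, 17 were higher and 16 lower. The glucose transporter SLC2A3 (370 and 233, -0.95) and the angiogenic factor VEGFA (156 and 122, -0.95) were lower. VEGFA with FOXF2 siRNA lay next to the background limit of 121.7. The mitophagy receptor BNIP3L (0.82) and the kinase PDK3 (0.81), which restrains pyruvate dehydrogenase, were higher. On the deposited scale 0 hypoxia and glycolysis genes were at least 1.5-fold higher and 1 lower. Cholesterol synthesis genes were evenly divided, with 12 higher and 12 lower, and TM7SF2, a sterol reductase, was the 1 at 1.5-fold (0.93). Of 22 measured spliceosomal Sm and LSm proteins, 2 were at least 1.5-fold lower. SNRPD1, a core Sm protein, was 556 after control siRNA and 226 after FOXF2 siRNA, a difference of -1.76, and -1.58 in MDA-MB-231, and LSM6 had a difference of -0.88. The 16 housekeeping genes had a median of -0.05, and TFRC was the 1 past 1.5-fold.

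Of 39 forkhead genes, 19 were above background on both MCF10A arrays, with a median of -0.08. FOXP4 was the 1 that was at least 1.5-fold higher (0.77), and FOXF2 itself and FOXD2 (-0.62) were the 2 that were at least 1.5-fold lower, where all genes gave 7.31% and 5.71%. FOXP4 (135 after control siRNA and 170 after FOXF2 siRNA) and FOXD2 (195 and 157) were dim. On the deposited scale 0 were at least 1.5-fold higher and 1 lower, FOXF2 itself. Forkhead motifs were counted in the same promoter windows. The forkhead core GTAAACA, on either strand, was in 931 of all 27305 windows (3.41%) and in 2.23% of those of genes above background. It was in 3 of 127 windows of genes of mean intensity 500 or more that were at least 1.5-fold higher (2.36%) and in 3 of 73 of those at least 1.5-fold lower (4.11%). Of the 42 named genes of that intensity, 31 had a window and 1 held the core. That gene was TXNIP, and its window (chr1:145996530-145996829, minus strand) is shown because TXNIP was at least 2-fold higher in both lines. The match, in capitals, lies 124 bases before the start, and it is a description of the letters, not of binding.
TXNIP: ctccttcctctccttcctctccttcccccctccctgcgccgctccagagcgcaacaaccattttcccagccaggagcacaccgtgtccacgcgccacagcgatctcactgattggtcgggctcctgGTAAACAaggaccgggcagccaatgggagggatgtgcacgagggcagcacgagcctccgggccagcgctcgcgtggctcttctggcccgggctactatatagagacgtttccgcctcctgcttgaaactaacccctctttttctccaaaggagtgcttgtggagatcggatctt

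The bright MCF10A differences were set beside MDA-MB-231, which had its own control array. Of 158 bright genes that were at least 1.5-fold higher in MCF10A and above background in both lines, 100 (63.3%) were also higher in MDA-MB-231, against 49.4% of all 4221 such genes, and 15 were at least 1.5-fold higher there, where 135 of the 4221 were, and 1 at least 1.5-fold lower. Of 94 that were at least 1.5-fold lower in MCF10A, 62 (66.0%) were lower in MDA-MB-231, against 50.6% of the 4221, and 15 by at least 1.5-fold, where 137 of the 4221 were. Over all 4221 genes Pearson's r of both lines' differences was 0.136, as a description across genes, which share arrays and labelling. Bright genes past 2-fold in both lines with the same sign numbered 3. TXNIP had a difference of 1.27 in MCF10A cells and 1.38 in MDA-MB-231, AKR1C2 had 1.34 and 1.10, and TMED2 had -1.11 and -1.42. Other named bright genes also lay past 1.5-fold in MDA-MB-231 in the direction of MCF10A. They included EDEM1 (-1.71), PPIC (-0.81), MCL1 (-0.76), ARPC1A (-0.75), TRIB3 (-0.63), EXOSC1 (-0.62), COL8A1 (0.65), AKR1C4 (0.75) and S100A4 (0.81). COL8A1 was at the floor in MDA-MB-231, with 121.03 after control siRNA, where the background limit was 121.01, and 141 after FOXF2 siRNA. Other large MCF10A differences were small there. CLDN1 was 211 and 218 in MDA-MB-231, a difference of 0.09, AKR1C3 had 0.15, THBS1 had 0.20 and TUBA1C had -0.05. MUC1, DCN, MSLN, SERPINA3 and IL1B were not above background on both MDA-MB-231 arrays, so their difference has no counterpart there. Whether any gene's difference differed between the lines was not tested.

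**Figure D4:**
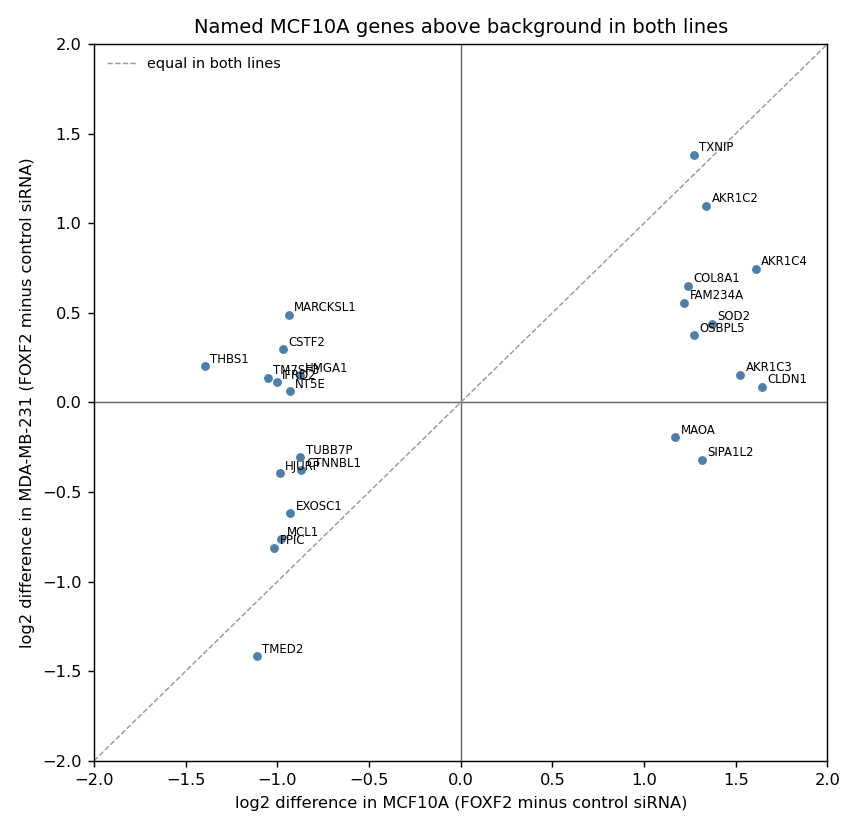
Log2 difference (FOXF2 siRNA minus control siRNA) in MDA-MB-231 against that in MCF10A, for the 25 of the 30 genes with the 15 highest and 15 lowest MCF10A differences at a mean intensity of 500 or more that were above background on all 4 arrays. Points on the dashed line have equal differences, TXNIP (1.27 and 1.38) and TMED2 (-1.11 and -1.42) lie near its ends, and CLDN1 (1.64 and 0.09) and THBS1 (-1.40 and 0.20) lie far from it.

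A further 2590 genes were above background only with FOXF2 siRNA and 2634 only with control siRNA, and for these only a bound can be given. In each direction 1 named gene reached an intensity of 250 on the array where it was detected. SPSB2, an adaptor of a ubiquitin ligase, was 112.3 with control siRNA, not above background, and 303 with FOXF2 siRNA, at least 2.49-fold higher on the deposited scale. RYR3, an intracellular calcium release channel, was 366 after control siRNA and 93.1 after FOXF2 siRNA, not above background, and so at least 3.01-fold lower on that scale, each against the lowest intensity above background on the other array. In MDA-MB-231 SPSB2 was 278 and 496, and RYR3 was not above background on either array.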

How the data were processed

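Total RNA of MCF10A and MDA-MB-231 was measured on Illumina BeadChips as biotinylated cRNA, per the labels' protocols. The deposited table gives 1 linear intensity per gene name and array, as the authors processed it. How it was normalized, and whether background was removed, is not given in the sources used here, but the 4 arrays had nearly equal quantiles (medians 111.4 to 111.6) and no visible background subtraction. A separate probe-level table with 8 per-sample columns was not used, because its column names match no label. Of the 37810 names, 15704 matched a RefSeq symbol, 2997 matched as a synonym of 1 gene, and 19109 did not match.

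Background was modelled per array by the mode of the dim values (below 140) and the SD of what lay under that mode. The normexp signal estimate at these values plus an offset of 16 was log2-transformed with no further normalization. Bounds set the deposited intensity on the detected array against the lowest one above background on the other. Python 3.11.15 with numpy 2.4.6, pandas 2.3.3 and scipy 1.17.1 was used, and the steps were tested on simulated data. Nothing in the labels says that arrays came from separate cultures. Alternatives covered the correction, offset, normalization, background limit and intensity limit.

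The genes named were FOXF2, the 15 highest and 15 lowest differences of mean intensity 500 or more, the 8 highest and 8 lowest of 2000 or more, up to 4 list members with the largest difference of at least 1.5-fold, and up to 4 bounds each way of at least 250, all among names with a symbol. Some results that this rule covers are not reported here. Further list members were named after their values were seen. The members and lists were chosen with earlier results of these data known.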

Additional observations from a re-analysis of the deposited data

Results flagged for a closer look

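In 3 genes above background on all 4 arrays, the difference passed 1.5-fold in opposite directions in MCF10A and MDA-MB-231. Each line had 1 array per siRNA, and the difference between the lines was not tested. KRTDAP, a peptide of differentiating keratinocytes, was 144 after control siRNA and 213 after FOXF2 siRNA in MCF10A (1.15) and 167 and 124 in MDA-MB-231 (-1.12), so that the MCF10A difference minus the MDA-MB-231 difference was 2.26. PKP2, a desmosomal plakophilin, was 359 and 245 in MCF10A (-0.78) and 134 and 191 in MDA-MB-231 (1.13), which gave -1.92. FZD8, a Wnt receptor, was 173 and 131 in MCF10A (-0.95) and 135 and 163 in MDA-MB-231 (0.64), which gave -1.59. The choice was made among genes named by the rule, and all 3 had intensities below 500 on every array. Some values lay near the background limit, such as 124 for KRTDAP in MDA-MB-231 with FOXF2 siRNA, where the limit was 121.15. In MCF10A the ratios of the deposited values were 1.48 for KRTDAP, 0.68 for PKP2 and 0.76 for FZD8, all short of 1.5-fold.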

How the results depend on the processing

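The counts depended on how background was handled. Genes at least 2-fold higher numbered 172, with 33 without background correction and 65 with an offset of 50, and those at least 2-fold lower numbered 91, with 6 and 19. Among genes of mean intensity 500 or more, the 29 at least 2-fold higher became 19 without correction, 65 with a limit of 250 and 15 with a limit of 1000. The 7 at least 2-fold lower became 3 without correction, 3 with an offset of 50, 16 with a limit of 250 and 4 with a limit of 1000. The FOXF2 difference of -1.45 was -0.75 without correction. The interferon list's median of 0.33 was 0.20 without correction and 0.64 over members of mean intensity 500 or more. Over members of that intensity the sign of 6 list medians turned, for immediate-early genes from -0.17 to 0.07, cornified envelope genes from 0.21 to -0.11, integrins from 0.10 to -0.12, G1/S genes from -0.07 to 0.10, Wnt genes from -0.01 to 0.21 and hypoxia genes from 0.02 to -0.01. Quantile normalization, scaling to a common median and a background limit at the upper 5% left every count above within 1.5 times of its value, and so did a limit at the upper 0.1%, chosen after seeing the data, for the counts over all genes. Of 121 named differences, 23 moved by more than the local SD without correction, 4 with an offset of 50 and 0 with quantile normalization. The median of all genes stayed between -0.014 and 0.002. No paired analysis was possible because each group was 1 array and the labels carry no replicate numbers. Signal over background limits the dim genes, where the 2-fold calls are concentrated, with 107 of the 172 higher and 75 of the 91 lower genes below a mean intensity of 250.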

Other observations

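Some gene families were picked by name after their values were seen, so their counts are descriptions only. At 1.5-fold, 7.31% of all genes were higher and 5.71% lower. Of 18 tubulin rows, 11 were above background on both MCF10A arrays, 10 lower with FOXF2 siRNA and 1 higher, with 4 at least 1.5-fold lower and a median of -0.32 in MCF10A cells and -0.16 in MDA-MB-231. Tubulins are the subunits of microtubules, and the rows include near-identical copies and pseudogenes whose shared signal was not tested. Of 8 rows of ferritin heavy chain and its pseudogenes, 7 were above background, all 7 higher, 5 of them at least 1.5-fold, with a median of 0.75 in MCF10A cells and 0.27 in MDA-MB-231. The pseudogene rows are copies of the same gene, and their shared signal was not tested, so they may not be separate observations. Of 5 yippee-like genes, which encode small zinc-binding proteins, the 2 above background on both arrays were higher, YPEL3 (144 after control siRNA and 273 after FOXF2 siRNA, 1.69) and YPEL5 (413 and 777, 1.08). Another 1 of the 5 was above background only with control siRNA, as were 2634 of all 37810 names. Of 64 histone rows 18 were measured, 13 higher and 5 lower, with a median of 0.23 in MCF10A cells and -0.11 in MDA-MB-231. The large housekeeping assemblies had medians nearer 0, at 0.04 for 83 cytosolic ribosomal protein genes, -0.12 for 43 proteasome genes, -0.08 for 9 chaperonin genes and -0.03 for 17 aminoacyl-tRNA synthetase genes. Of 17 keratin rows measured on both arrays, 9 were higher and 8 lower, with a median of 0.04.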
